A study of Homo sapiens with 3 samples.

Results

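The genes described here code for the enzymes and transporters that carry glucose through glycolysis and the pentose phosphate pathway. They were taken by symbol from a list of 34 genes, and all 34 were present among the 26334 genes of each deposited table. RNA was sequenced from K562, an established human line from a chronic myelogenous leukaemia with erythroid features, after infection with a retroviral pMYs-IG vector that was empty or carried EVI1-WT or EVI1+18, each EVI1 form with 3 copies of an HA tag. EVI1 is a zinc finger transcription factor encoded by MECOM, and the series title links EVI1+18 to aberrant splicing. In all 3 groups the virus came from a packaging cell line and was added with polybrene, and cells carrying the vector's GFP were sorted on day 3 and expanded, so each group is a sorted pool of infected cells. What +18 stands for is not stated in the labels. Each construct has 1 library. There are thus no replicates and no tests, and every ratio compares libraries, not constructs. In bulk RNA, fewer cells of a type and less RNA per cell cannot be told apart.

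Glycolysis splits glucose into pyruvate and yields ATP and NADH without oxygen. Lactate dehydrogenase then restores NAD by turning pyruvate into lactate, or pyruvate enters the mitochondria, where pyruvate dehydrogenase kinases hold back its oxidation. The pentose phosphate pathway leaves glycolysis at glucose 6-phosphate and supplies NADPH and ribose. Most steps are served by isoenzymes from separate genes, and several of these genes are classical targets of the hypoxia-inducible factors. Red cells depend on glycolysis for ATP, and they carry an isoenzyme of pyruvate kinase of their own, from PKLR.

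The libraries held 17794423 counts with empty vector, 18439311 with EVI1-WT and 20772348 with EVI1+18. MECOM had 43.9, 56.9 and 97.3 scaled CPM (counts relative to the library total after TMM scaling) in that order. The empty vector library thus held MECOM reads without an EVI1 construct. MECOM was 1.30-fold above that library with EVI1-WT and 2.21-fold above it with EVI1+18. Reads of the construct and of the cells' own MECOM were not separated, so the amount of the construct's transcript is not known. The EVI1 libraries differed in both the construct's form and the MECOM level, and these cannot be told apart. All 11 erythroid markers of K562 had at least 50 counts in every library, and their summed TPM (a level per transcript length) was 52165, 68986 and 67103. The 10 markers of packaging, kidney or stromal cells summed to between 24.1 and 32.6 TPM, nearly all of it WT1. PAX2, LUM and PDGFRA were at 0 in every library, while COL1A2 had 93, 2 and 20 counts, highest with empty vector; the part of this difference between libraries in the results was not tested. The 6 lymphoid markers summed to between 0.35 and 0.76 TPM.

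Of the 34 genes, 32 averaged at least 50 counts per library and are compared by ratio, and the other 2, PDK2 and PDK3, are given by their counts. The 34 genes took 1.69% of the counts with empty vector, 1.84% with EVI1-WT and 2.08% with EVI1+18. Per length they made up 1.72%, 1.84% and 2.02% of all TPM. GAPDH alone was the 16th, 15th and 12th most abundant gene by TPM. The plot of levels by gene shows that the 34 genes spanned from 0.08 TPM for PDK2 to 6254 TPM for GAPDH, a wider range between genes than between libraries.

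**Figure D1:**
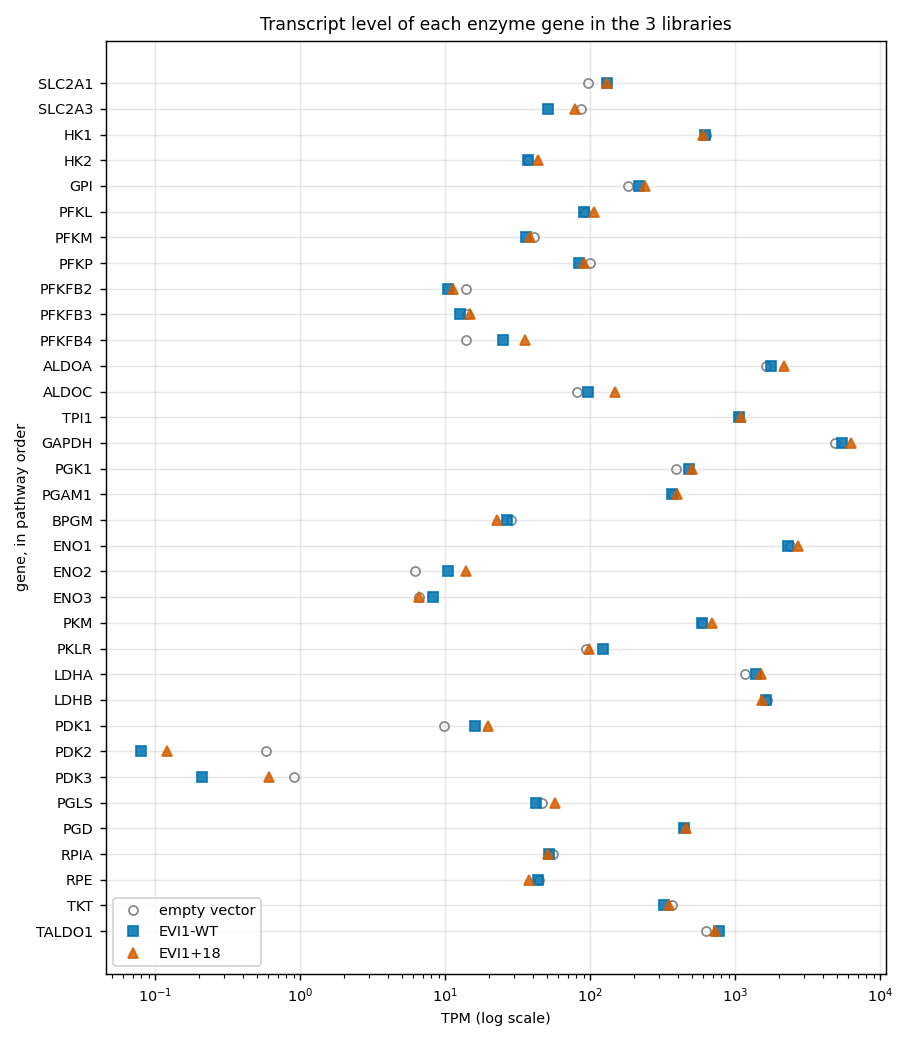
TPM of each of the 34 genes on a log axis, in pathway order, with 1 point per library (open circles, empty vector; squares, EVI1-WT; triangles, EVI1+18) and no error bars, since there is 1 library per construct. GAPDH was the most abundant, at 4872, 5485 and 6254 TPM, and PDK2 the least, at 0.58, 0.08 and 0.12 TPM.

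PFKFB4, ENO2 and PDK1 were the genes at least 2-fold higher with EVI1+18 than with empty vector, and ALDOC, at 1.98-fold (exact 95% counting interval 1.85 to 2.12), lay just short of that line. PFKFB4 makes and breaks fructose 2,6-bisphosphate, the activator of phosphofructokinase, ENO2 is the neuronal enolase, PDK1 holds back pyruvate oxidation, and ALDOC is the brain type of aldolase. The 3 genes were 3 of 32, against 1.01% of the 10406 genes that averaged at least 50 counts, and 0 of 32 were at least 2-fold lower, against 0.836% of all. With EVI1-WT against the same empty vector library 0 of 32 were at least 2-fold higher or lower, where 0.702% of all genes were higher and 1.70% lower. Between EVI1+18 and EVI1-WT no member passed 2-fold either, against 0.951% of all genes higher and 0.211% lower. At a fold of 1.5, 3 members were higher and 1 was lower with EVI1-WT (2.37% and 3.95% of all genes), 4 were higher and 0 lower with EVI1+18 (3.30% and 2.23%), and 2 were higher and 0 lower in EVI1+18 against EVI1-WT (3.57% and 0.846%).

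Smaller differences ran mostly upward. With EVI1+18, 25 of 32 members were above a ratio of 1 to empty vector, against 49.9% of all genes, and their median log2 ratio was 0.25, against 0.00 for all genes. With EVI1-WT 24 of 32 were above 1, against 52.6% of all genes, but the median log2 ratio was only 0.08, against 0.01. In EVI1+18 against EVI1-WT, 25 of 32 were above 1 (48.9% of all genes) with a median of 0.13. On the TPM scale the median of all genes moved to -0.10 for EVI1+18 against empty vector, and the counts above 1 were 17, 22 and 24 of 32 for the comparisons in the order EVI1-WT and EVI1+18 against empty vector and EVI1+18 against EVI1-WT, where 35.6%, 30.9% and 44.1% of all genes were above 1. Measured from the median of all genes, the members' median was 0.07, 0.25 and 0.14 with scaled counts and 0.07, 0.24 and 0.14 with TPM. The counting interval lay wholly above 1 for 21 of 32 members with EVI1-WT (24.3% of all genes), 22 with EVI1+18 (23.8%) and 22 in EVI1+18 against EVI1-WT (23.2%), and wholly below 1 for 4 (20.6%), 3 (23.9%) and 6 (25.4%). Most members are abundant, which narrows their intervals. The 2 EVI1 libraries share the empty vector library, and the last comparison reuses both EVI1 libraries.

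**Figure D2:**
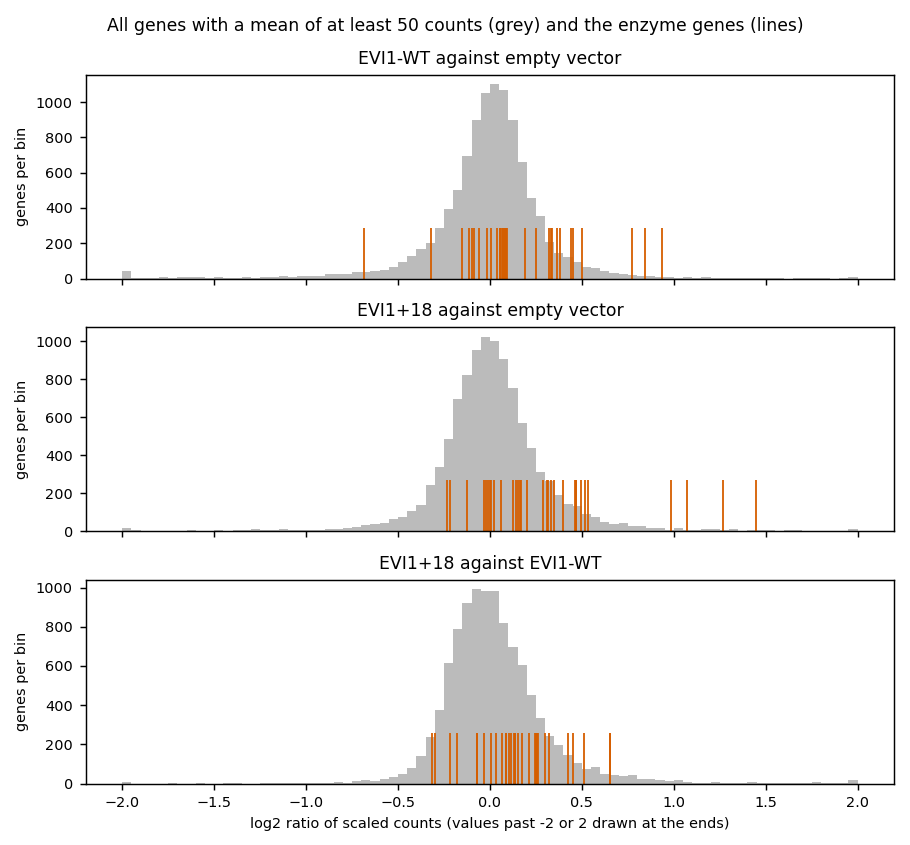
Histograms of the log2 ratio of scaled counts for the 10406 genes averaging at least 50 counts (grey, bins of equal width) with the 32 enzyme genes drawn as lines, in 1 panel per comparison. In the panel of EVI1+18 against empty vector the lines of ALDOC, PDK1, ENO2 and PFKFB4 stand at 0.99, 1.07, 1.27 and 1.45, apart from the other members.

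By level, 21 of 32 members had their highest scaled count in the EVI1+18 library, against 33.4% of all genes, and 21 of 32 had their lowest in the empty vector library, against 34.6%. The members with their highest scaled count in EVI1-WT were 7 (34.5% of all genes), namely HK1, BPGM, ENO3, PKLR, LDHB, RPE and TALDO1. By TPM, however, HK1, BPGM, LDHB and RPE were highest with empty vector. PFKM and TKT, highest with EVI1+18 by scaled count, were also highest with empty vector by TPM. By scaled count, highest with empty vector were SLC2A3, PFKP, PFKFB2 and RPIA, 4 of 32 against 32.1%. Lowest with EVI1-WT were 8 of 32 (30.8% of all genes), and lowest with EVI1+18 were 3, BPGM, LDHB and RPE (34.6%). By TPM, HK1 and RPIA were also lowest with EVI1+18, and PFKL, PGAM1 and ENO1 with EVI1-WT. The highest library by scaled count and the next did not differ beyond counting error for SLC2A1, SLC2A3, PFKM, PFKP, BPGM, ENO3, RPIA and RPE.

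The promoters of the genes that lead these differences are shown because several glycolytic genes are known to be driven through the core of the hypoxia response element, the letters ACGTG or GCGTG. The 250 bases before the RefSeq transcription start (build GRCh38.p14, not the hg19 of the deposited tables) are given 5′ to 3′ on the gene's own strand, with each match to either core, on either strand, in capitals (CACGT and CACGC are the cores read on the other strand). They come from chr3:48556804-48557053 (minus strand) for PFKFB4, chr12:6914330-6914579 (plus) for ENO2, chr2:172555840-172556089 (plus) for PDK1 and chr17:28576896-28577145 (minus) for ALDOC. LDHA at chr11:18394313-18394562 (plus) and LDHB at chr12:21657843-21658092 (minus) are added as a pair of isoenzymes whose ratios differed. All promoters shown were thus chosen by the ratios of their genes. PDK1 and LDHA each have another start, not shown. The 250 bases before that start held 0 matches for PDK1 and 1 for LDHA, so the start printed is the one richer in matches.
PFKFB4: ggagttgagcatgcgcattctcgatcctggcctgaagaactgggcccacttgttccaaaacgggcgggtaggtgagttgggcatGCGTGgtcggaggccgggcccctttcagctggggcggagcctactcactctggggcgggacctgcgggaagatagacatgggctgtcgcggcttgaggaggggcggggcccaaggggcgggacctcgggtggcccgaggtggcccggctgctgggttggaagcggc
ENO2: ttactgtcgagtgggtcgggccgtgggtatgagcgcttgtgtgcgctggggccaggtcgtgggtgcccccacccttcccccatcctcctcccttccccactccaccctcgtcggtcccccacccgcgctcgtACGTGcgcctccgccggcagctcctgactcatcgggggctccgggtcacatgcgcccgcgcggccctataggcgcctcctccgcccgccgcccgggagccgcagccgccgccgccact
PDK1: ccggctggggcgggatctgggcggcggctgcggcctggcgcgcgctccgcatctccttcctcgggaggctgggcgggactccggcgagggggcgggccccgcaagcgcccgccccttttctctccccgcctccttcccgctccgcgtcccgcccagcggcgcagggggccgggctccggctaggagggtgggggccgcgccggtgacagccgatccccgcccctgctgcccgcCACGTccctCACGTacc
ALDOC: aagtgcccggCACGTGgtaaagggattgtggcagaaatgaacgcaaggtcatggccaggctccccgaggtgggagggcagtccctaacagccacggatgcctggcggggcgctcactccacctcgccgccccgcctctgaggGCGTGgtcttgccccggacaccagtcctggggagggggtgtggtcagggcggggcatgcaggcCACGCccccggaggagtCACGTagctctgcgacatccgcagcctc
LDHA: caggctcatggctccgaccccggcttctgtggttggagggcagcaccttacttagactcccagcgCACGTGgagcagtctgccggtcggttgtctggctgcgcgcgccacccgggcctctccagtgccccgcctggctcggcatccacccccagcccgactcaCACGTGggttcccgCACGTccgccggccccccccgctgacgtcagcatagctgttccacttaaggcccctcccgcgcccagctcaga
LDHB: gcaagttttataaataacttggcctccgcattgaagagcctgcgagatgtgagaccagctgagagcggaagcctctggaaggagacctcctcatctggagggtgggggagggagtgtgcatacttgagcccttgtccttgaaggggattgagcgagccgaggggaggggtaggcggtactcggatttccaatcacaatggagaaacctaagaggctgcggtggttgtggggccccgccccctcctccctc

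In these stretches the PFKFB4 promoter held 1 GCGTG, starting 166 bases before the start, and the ENO2 promoter 1 ACGTG at 118 bases. The PDK1 promoter held 2 matches, at 17 and 8 bases. In ALDOC a CACGTG, which reads as ACGTG on both strands, lay at 240 bases, with 3 further matches at 108, 45 and 28 bases. LDHA held a CACGTG at 185 and at 87 bases and a further match at 73, and LDHB held none before its start, its 1 GCGTG lying within the 50 bases after it. Among genes not shown, PGK1 (1.29 and 1.38 to empty vector) held 3 matches before its start. SLC2A1 (1.41 and 1.45) and TALDO1 (1.30 and 1.24) held 0 before theirs, with 1 GCGTG within the 50 bases after the start of SLC2A1. HK2 (1.06 and 1.27) held 3 matches before one start and 6 before another, a CACGTG counting on each strand. PFKP, at 0.899 and 0.987, held 1 match before one start, 3 before another and 0 before its remaining starts. Other members with matches are not named here. The part of such matches in the ratios was not tested.

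Windows of 300 bases, from 250 before to 50 after a start, were found for 32 of the 34 genes, 58 windows in all, SLC2A3 and PFKFB2 being without one. ACGTG was in at least 1 window of 18 of the 32 genes (56.2%), against 33.4% of 8000 genes that averaged at least 50 counts and had a window, and 24.9% of all 27305 genes. GCGTG was in 19 of 32 (59.4%), against 60.3% and 40.6%. By window, ACGTG was in 37.9% of the members' windows, against 26.2% and 21.4%, and GCGTG was also in 37.9%, against 50.6% and 36.5%. Members had a median GC content of 67.0% in their windows, against 65.0% and 58.7%. They had 58 windows for 32 genes, where the 8000 genes had 11532 and all 27305 genes had 35116. The part of either in these shares was not tested. Some windows of the same gene overlap, as in HK1 and PFKM, so the shares by window count some bases repeatedly. A match of letters is a description and not a binding site.

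Glucose enters the cell through SLC2A1 (GLUT1), the main transporter of red cells and of most growing cells, and SLC2A3 (GLUT3), a transporter of higher affinity. SLC2A1 had 199.6 scaled CPM with empty vector, 282.2 with EVI1-WT and 288.9 with EVI1+18. Both EVI1 libraries were higher, by 1.41-fold (1.35 to 1.48) and 1.45-fold (1.39 to 1.51), and they did not differ from each other beyond counting error (1.02, 0.986 to 1.06). SLC2A3 had 191.2, 119.0 and 187.2 scaled CPM. It was 1.61-fold lower with EVI1-WT than with empty vector (1.52 to 1.70) and in the EVI1+18 library 1.57-fold above EVI1-WT (1.49 to 1.66), while EVI1+18 and empty vector were alike to within counting error (0.979, 0.935 to 1.03).

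The EVI1-WT library was thus the low one for SLC2A3 and, with EVI1+18, a high one for SLC2A1. Per length, SLC2A1 made up 53.0% of the TPM of this pair with empty vector, 71.9% with EVI1-WT and 62.5% with EVI1+18. The count ratio of SLC2A3 to SLC2A1, which does not depend on how libraries are scaled, was 2.27-fold lower with EVI1-WT than with empty vector (2.12 to 2.43) and 1.48-fold lower with EVI1+18 (1.39 to 1.57). SLC2A14, a near-identical copy of SLC2A3, had 28, 7 and 18 counts, and adding it left the SLC2A3 ratios at 1.62-fold lower (1.53 to 1.70) and 0.976 (0.932 to 1.02).

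Hexokinases trap glucose by phosphorylation. HK1, the form of most tissues including red cells, had 1271, 1319 and 1290 scaled CPM and carried 94.4%, 94.3% and 93.1% of hexokinase TPM. Its ratios to empty vector, 1.04 (1.02 to 1.06) and 1.01 (0.997 to 1.03), both turned below 1 on the TPM scale, so no direction is given. HK2, an inducible form, had 153.0, 162.2 and 194.4 scaled CPM. It was 1.27-fold higher with EVI1+18 than with empty vector (1.21 to 1.33) and 1.20-fold higher than with EVI1-WT (1.14 to 1.26). The HK2 to HK1 count ratio was 1.25-fold higher with EVI1+18 than with empty vector (1.19 to 1.32) and at 1.02 with EVI1-WT (0.967 to 1.08).

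GPI, which turns glucose 6-phosphate into fructose 6-phosphate at the branch to the pentose phosphate pathway, had 432.5, 539.7 and 609.1 scaled CPM. The libraries stood in the order empty vector, EVI1-WT, EVI1+18, with steps of 1.25-fold (1.21 to 1.29) and 1.13-fold (1.10 to 1.16).

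Phosphofructokinase, the enzyme of the committed step, is built from liver (PFKL), muscle (PFKM) and platelet (PFKP) subunits. PFKL had 148.3, 155.0 and 184.7 scaled CPM, PFKP 142.7, 128.3 and 140.8, and PFKM 73.1, 67.7 and 73.3. Only PFKL was above empty vector with EVI1+18 beyond counting error, at 1.25-fold (1.18 to 1.31). PFKP was 1.11-fold lower with EVI1-WT (1.05 to 1.18), and PFKM was at 0.926 (0.856 to 1). PFKL and PFKP were near each other per length, at 91.9 and 98.9 TPM with empty vector, and their order was reversed in the EVI1 libraries, at 91.0 and 84.2 TPM with EVI1-WT and 107 and 90.7 TPM with EVI1+18. The PFKP to PFKL count ratio was 1.16-fold lower with EVI1-WT (1.07 to 1.26) and 1.26-fold lower with EVI1+18 (1.17 to 1.36), each against empty vector.

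The bifunctional enzymes PFKFB2, PFKFB3 and PFKFB4 set the level of fructose 2,6-bisphosphate. PFKFB4 had 489, 946 and 1527 counts, or 27.1, 51.8 and 73.8 scaled CPM. The libraries stood apart in the order empty vector, EVI1-WT, EVI1+18, with EVI1-WT 1.91-fold (1.71 to 2.14) and EVI1+18 2.72-fold (2.46 to 3.02) above empty vector and EVI1+18 1.42-fold above EVI1-WT (1.31 to 1.55). PFKFB3, the form with the strongest kinase activity, had 33.7, 31.8 and 37.9 scaled CPM, and PFKFB2, known from the heart, had 51.8, 41.5 and 44.1. PFKFB3 was at 0.941 with EVI1-WT (0.839 to 1.06) and 1.12 with EVI1+18 (1.01 to 1.25), and PFKFB2 was lower in both, by 1.25-fold (1.13 to 1.38) and 1.18-fold (1.07 to 1.29).

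With empty vector the 3 PFKFB genes were nearly equal per length, at 33.1% for PFKFB2, 33.7% for PFKFB3 and 33.2% for PFKFB4 of their summed TPM. PFKFB4 took 52.3% with EVI1-WT and 57.6% with EVI1+18. The count ratio of PFKFB2 to PFKFB4 was 2.39-fold lower with EVI1-WT (2.06 to 2.77) and 3.20-fold lower with EVI1+18 (2.79 to 3.68) than with empty vector. That of PFKFB3 to PFKFB4 was 2.03-fold (1.73 to 2.39) and 2.43-fold lower (2.09 to 2.82).

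**Figure D3:**
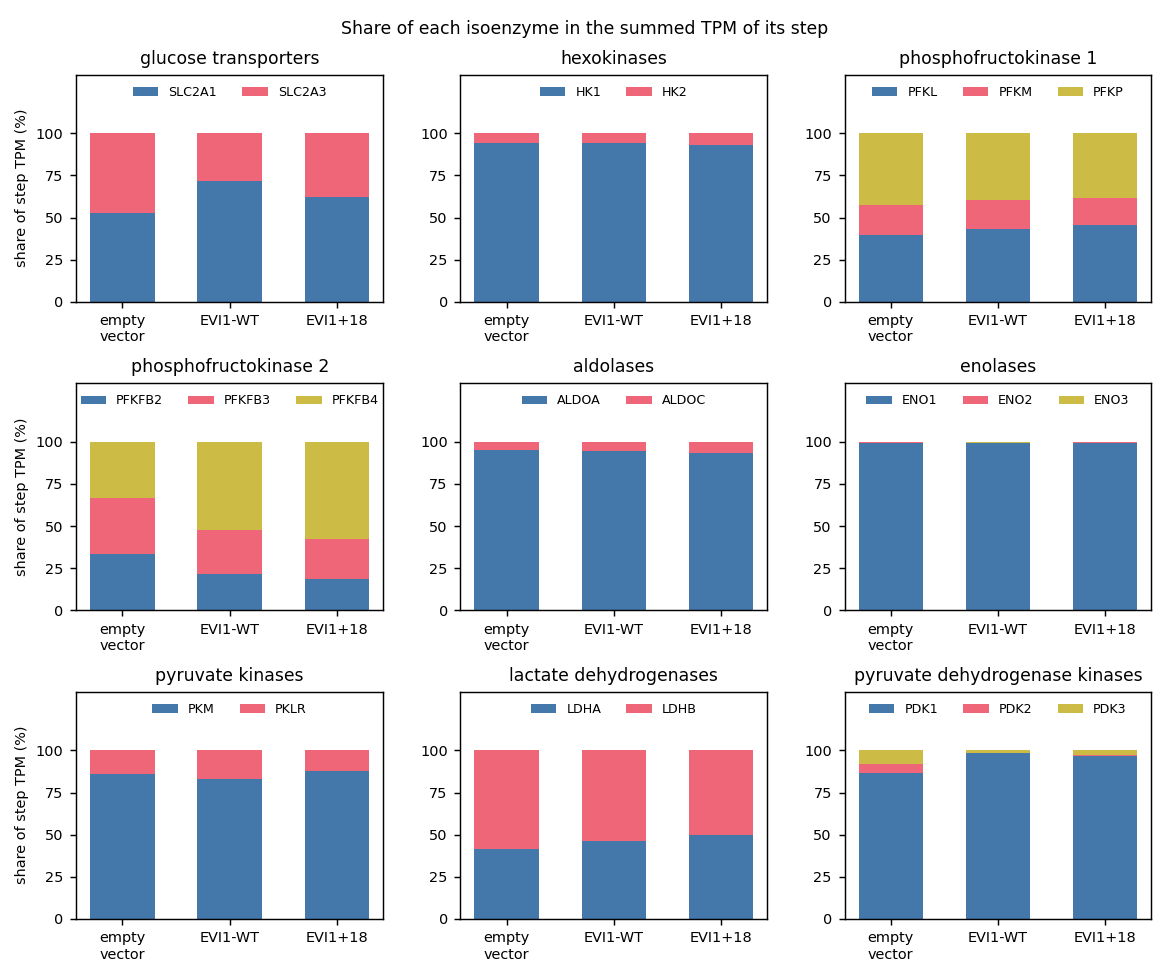
Share of each isoenzyme in the summed TPM of its step, in percent, as stacked bars for the 3 libraries, with 1 panel per set and no error bars. PFKFB4 fills 33.2%, 52.3% and 57.6% of its bars and SLC2A1 53.0%, 71.9% and 62.5%, while HK1, ALDOA and ENO1 fill over 93% of their bars in every library.

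Aldolase splits fructose 1,6-bisphosphate. ALDOA, the form of muscle and red cells, had 1313, 1499 and 1876 scaled CPM, and ALDOC 67.5, 84.9 and 133.7. Both stood lowest with empty vector and highest with EVI1+18. Over empty vector, ALDOA differed by 1.14-fold in EVI1-WT (1.12 to 1.16) and 1.43-fold in EVI1+18 (1.41 to 1.45), and ALDOC by 1.26-fold (1.17 to 1.36) and, as given above, 1.98-fold. Between EVI1+18 and EVI1-WT the ALDOC ratio, 1.57 (1.48 to 1.68), was with that of SLC2A3 one of the 2 past 1.5-fold. ALDOC remained a small part of aldolase TPM, at 4.75%, 5.16% and 6.43%. TPI1, which interconverts the triose phosphates, had 690.0, 730.2 and 775.8 scaled CPM, a difference of 1.12-fold for EVI1+18 (1.10 to 1.15).

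In the second stage, from triose phosphate to pyruvate, 8 of 9 genes were above a ratio of 1 with EVI1+18 against empty vector at a median log2 ratio of 0.29, and in the first stage 8 of 9 at a median of 0.32, where 49.9% of all genes were. In EVI1+18 against EVI1-WT, 6 of 9 of the second stage and 8 of 9 of the first were above 1, against 48.9% of all genes. With EVI1-WT against empty vector, 9 of 9 and 7 of 9 were, against 52.6%, though the ratios of ENO1, PGAM1, BPGM, HK1 and PFKL turned below 1 with TPM. GAPDH, the dehydrogenase that forms NADH, had 3338, 3967 and 4604 scaled CPM. It stood 1.19-fold above empty vector in EVI1-WT (1.18 to 1.20) and 1.38-fold in EVI1+18 (1.37 to 1.39), which placed the latter above 94.3% of all genes. PGK1, the first enzyme of the pathway to make ATP, had 509.4, 655.6 and 705.1 scaled CPM, at 1.29-fold (1.25 to 1.32) and 1.38-fold (1.35 to 1.42). PGAM1 had 325.2, 341.0 and 374.6 scaled CPM and was 1.15-fold higher with EVI1+18 (1.11 to 1.19). GAPDH is often used as a reference transcript, and in these libraries its level differed between all 3.

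BPGM makes 2,3-bisphosphoglycerate, which lowers the oxygen affinity of haemoglobin in red cells. Unlike its neighbours, BPGM had its lowest level with EVI1+18, at 22.5 scaled CPM, against 26.1 and 26.2 with empty vector and EVI1-WT. It was 1.16-fold lower than with empty vector (1.02 to 1.32) and 1.16-fold lower than with EVI1-WT (1.02 to 1.33).

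Enolase was almost wholly ENO1, at 99.5%, 99.2% and 99.3% of enolase TPM. ENO1 had 2779, 2850 and 3389 scaled CPM, so that EVI1+18 was high, by 1.22-fold (1.21 to 1.23) over empty vector, and the others close together. Its ratio with EVI1-WT, 1.03 (1.01 to 1.04), was below 1 with TPM. ENO2 had 145, 263 and 400 counts, or 8.03, 14.4 and 19.3 scaled CPM. Each library stood apart from the next, with ENO2 1.79-fold higher with EVI1-WT (1.46 to 2.21), 2.41-fold with EVI1+18 (1.99 to 2.93) and EVI1+18 1.34-fold above EVI1-WT (1.15 to 1.57). Even so ENO2 reached only 13.8 TPM beside 2716 TPM for ENO1 with EVI1+18. ENO3, the muscle form, had 88, 121 and 110 counts and was 1.36-fold higher with EVI1-WT (1.02 to 1.81), with EVI1+18 at 1.09 (0.816 to 1.46).

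Pyruvate kinase closes the pathway. PKM, the form of most tissues, had 794.9, 846.5 and 1002 scaled CPM and was highest with EVI1+18, by 1.26-fold over empty vector (1.23 to 1.29). PKLR, the gene of the liver and red cell forms, had 157.5, 215.3 and 175.3 scaled CPM and was highest with EVI1-WT. PKLR stood 1.37-fold above empty vector in EVI1-WT (1.30 to 1.43) and 1.11-fold in EVI1+18 (1.06 to 1.17), and was 1.23-fold lower with EVI1+18 than with EVI1-WT (1.17 to 1.29). The PKLR to PKM count ratio was above that of empty vector in EVI1-WT, by 1.28-fold (1.22 to 1.35), and 1.13-fold lower in EVI1+18 (1.07 to 1.19), so the balance of the isoenzymes lay on opposite sides of empty vector. The summed TPM of the erythroid markers given above was also highest with EVI1-WT, but that order came from HBE1 (5484, 10076 and 5235 TPM). Without HBE1 the sum was 46680, 58910 and 61869 TPM, highest with EVI1+18, and GATA1 and LMO2 were highest with empty vector. The part of these markers in the PKLR difference was not tested.

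**Figure D4:**
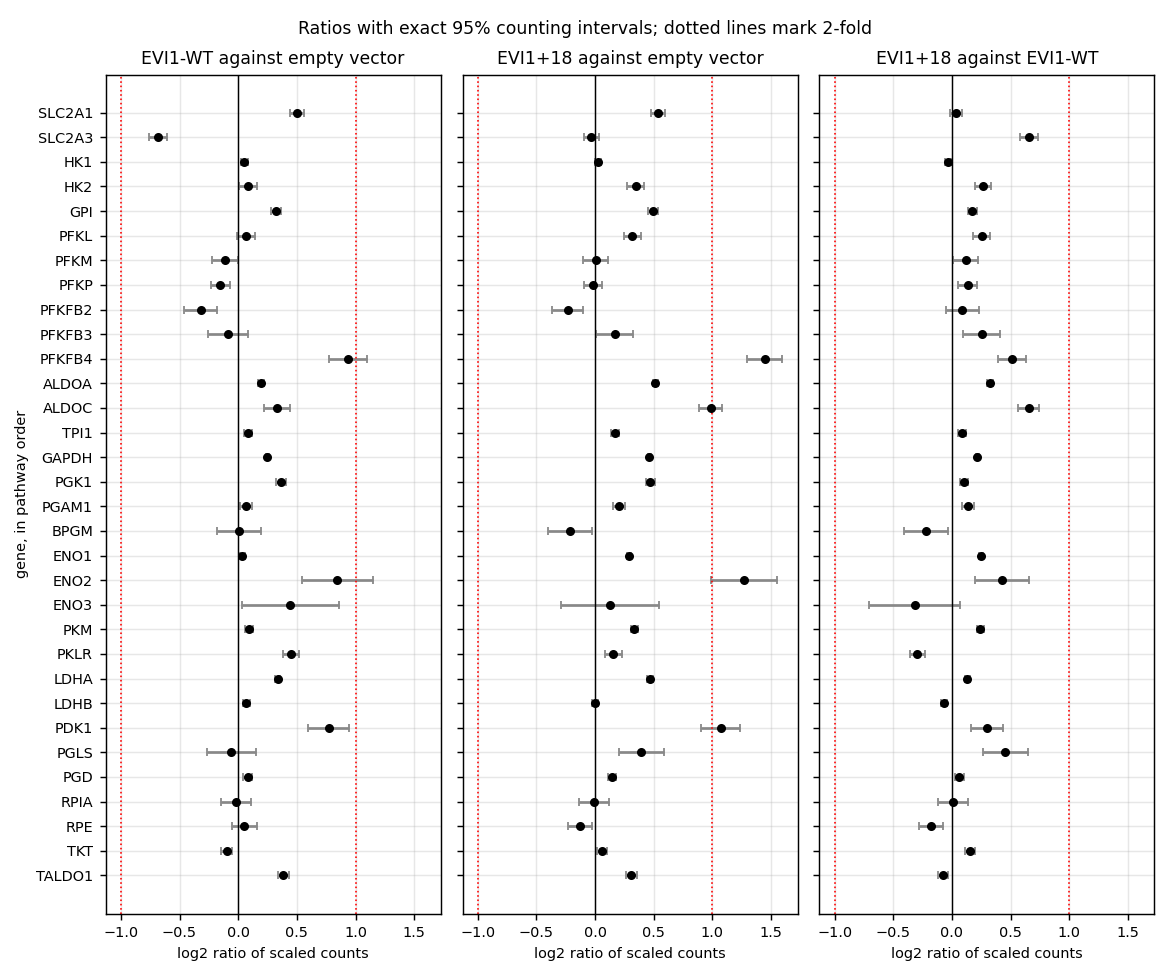
Log2 ratio of scaled counts for the 32 genes averaging at least 50 counts, in pathway order, with 1 panel per comparison, bars for exact 95% counting intervals and dotted lines at 2-fold. In the middle panel, EVI1+18 against empty vector, PFKFB4, ENO2 and PDK1 lie past the dotted line and ALDOC on its edge, whereas SLC2A3 is the lowest point of the left panel at -0.68.

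Lactate dehydrogenase is a tetramer of A and B subunits, the A form being favoured in glycolytic tissue. LDHA had 1368, 1727 and 1890 scaled CPM, and LDHB 1042, 1093 and 1041. LDHA was higher in both EVI1 libraries, by 1.26-fold (1.24 to 1.28) and 1.38-fold (1.36 to 1.40). LDHB was at 1.05 with EVI1-WT (1.03 to 1.07), a ratio that turned to just below 1 with TPM, and at 0.999 with EVI1+18 (0.980 to 1.02). Per length LDHB was the larger part in every library, though LDHA went from 41.5% with empty vector to 46.1% and 49.5%. The LDHA to LDHB count ratio was 1.20-fold higher with EVI1-WT (1.17 to 1.24), 1.38-fold higher with EVI1+18 (1.35 to 1.42) and differed by 1.15-fold between the EVI1 libraries (1.12 to 1.18).

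Among the pyruvate dehydrogenase kinases, PDK1 was the one expressed at more than trace level. PDK1 had 429, 741 and 1033 counts, or 23.8, 40.6 and 49.9 scaled CPM. The order was again empty vector, EVI1-WT, EVI1+18, at 1.71-fold (1.51 to 1.93) and 2.10-fold (1.88 to 2.36) over empty vector and 1.23-fold between the EVI1 libraries (1.12 to 1.35). PDK2 had 15, 2 and 4 counts and PDK3 30, 8 and 21, so both were highest with empty vector on counts too few for the ratio rule. PDK1 made up 86.7%, 98.2% and 96.4% of the TPM of the 3 kinases.

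Of the 6 pentose phosphate genes 0 passed 1.5-fold in any comparison, a fold that few of all genes passed either (3.95% at most, lower with EVI1-WT). Their median log2 ratio was 0.02 with EVI1-WT, 0.10 with EVI1+18 and 0.03 between the EVI1 libraries. In the oxidative branch, PGD, the 6-phosphogluconate dehydrogenase that makes NADPH, had 556.4, 588.5 and 614.8 scaled CPM and was 1.10-fold higher with EVI1+18 (1.08 to 1.13). PGLS, the lactonase before it, had 388, 377 and 585 counts, or 21.5, 20.6 and 28.3 scaled CPM. PGLS was high with EVI1+18 only, at 1.32-fold over empty vector (1.16 to 1.5) and 1.37-fold over EVI1-WT (1.20 to 1.56).

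In the non-oxidative branch, which trades sugars with glycolysis, TALDO1 (transaldolase) had 370.9, 483.8 and 459.8 scaled CPM. It was high in both EVI1 libraries, by 1.30-fold (1.26 to 1.35) and 1.24-fold (1.20 to 1.28). TKT (transketolase), its partner, had 427.0, 399.2 and 444.3 scaled CPM and was 1.07-fold lower with EVI1-WT (1.04 to 1.10), with EVI1+18 at 1.04 (1.01 to 1.07), a ratio that was below 1 with TPM. The isomerase RPIA had 52.4, 51.8 and 52.0 scaled CPM and differed by less than counting error in every comparison. RPE, the epimerase, had 79.7, 82.7 and 72.9 and was 1.09-fold lower with EVI1+18 than with empty vector (1.02 to 1.17).

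Minor isoforms and related genes were mostly at few or 0 counts, with SLC2A4 at 48, 30 and 48. Of 21 such genes, 1 averaged at least 50 counts, where 10406 of all 26334 genes did. This was H6PD, the pentose phosphate dehydrogenase of the endoplasmic reticulum, with 73, 40 and 110 counts, 1.85-fold lower with EVI1-WT than with empty vector (1.24 to 2.79) and in the EVI1+18 library 2.43-fold above EVI1-WT (1.68 to 3.58). HK3, SLC2A2, PGAM2 and LDHC had 0 counts in every library, which allows up to 3 counts per library.

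Of the genes that handle pyruvate and lactate beyond these enzymes, 13 of 15 present averaged at least 50 counts and 0 of 13 passed 2-fold in any comparison, as did few of all genes (0.211% to 1.70% in either direction). Above a ratio of 1 to empty vector were 5 of 13 with EVI1-WT (52.6% of all genes) and 2 of 13 with EVI1+18 (49.9%), at median log2 ratios of -0.04 and -0.13. In EVI1+18 against EVI1-WT 2 of 13 were above 1 (48.9%), at a median of -0.08. The carrier subunit genes MPC1 and MPC2, which bring pyruvate into mitochondria, were 1.23-fold (1.12 to 1.36) and 1.21-fold lower (1.15 to 1.27) with EVI1+18. PDP2, a phosphatase that opposes the PDK enzymes, had 1064, 735 and 797 counts and was 1.46-fold lower with EVI1-WT (1.33 to 1.61) and 1.53-fold lower with EVI1+18 (1.39 to 1.68). PDP1, the other such phosphatase, had 46, 71 and 45 counts and went the other way with EVI1-WT, 1.53-fold higher (1.04 to 2.26), with EVI1+18 at 0.853 (0.553 to 1.32). PDHA1, the subunit on which the PDK enzymes act, was at 0.975 (0.939 to 1.01) and 0.867 (0.835 to 0.901). Of the lactate exporters, SLC16A1 was at 1.19 with EVI1-WT (1.15 to 1.23) and 1.08 with EVI1+18 (1.04 to 1.12), and SLC16A3, below the count limit, had 17, 42 and 64 counts.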

How the data were processed

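RNA purified on RNeasy columns went into TruSeq RNA libraries, per the labels' protocols. For each library the authors deposited a gene table of expected counts (estimated reads per gene, shared between the transcripts a read fits), TPM (scaled by the authors to the same total per library) and FPKM, and of length and effective length as other values, per the file headers. Neither the deposited FPKM nor the deposited lengths entered a result. Per the submitters' processing notes, hg19 and bcl2fastq were used. Which aligner, counter and annotation release were used, and whether strand was, is not given in the sources used here, so reads of pseudogenes, near-identical copies and overlapping genes are uncertain; in the tables TPI1P2 had 0.390% of the counts of TPI1, and PGAM4, a copy of PGAM1, had 0.

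Expected counts were rounded and scaled with TMM factors (edgeR 4.0.16, R 4.3.3) of 1.01, 0.990 and 0.996. Ratios are given for genes that averaged at least 50 counts, with exact 95% Clopper-Pearson intervals conditional on the sum of the counts (scipy 1.17.1, Python 3.11.15). The ratio of 2 isoenzymes was compared between libraries with an exact conditional interval. Without molecular identifiers, reads are not independent molecules, so intervals, and the limit of 3 counts for a count of 0, cover counting error only. The interval code was checked on simulated counts.

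All 34 members are described; the rule asked for full values only for those past 1.5-fold in any comparison and the leading isoenzyme of each step, and the values of HK2, PFKM, PFKFB3, BPGM, ENO3, PKLR, PGLS, RPIA, RPE and other members beyond it were added after they were seen. The other 3 gene lists of the pathway's surroundings and that of minor isoforms give up to 4 genes past 2-fold each. HK3, SLC2A2, SLC2A4, SLC2A14, PGAM2, LDHC, MPC1, MPC2, PDP1, PDP2, PDHA1, SLC16A1, SLC16A3, GYS1, GBE1, PGM2L1, PGM1, PGM2, FBP1, FBP2, PCK2, G6PC3, EGLN3, EGLN1, EGLN2, HIF1AN, VHL, HIF1A and EPAS1 fall outside that rule and were chosen after their values were seen. Members and lists were chosen with earlier results of these data known. The promoters printed or described were chosen after the ratios of their genes were seen. Alternatives were library totals, DESeq2 1.42.0 size factors, TPM, count minimums of 10 and 1, and sums with near-identical copies. A planned comparison of protein sequences was not made.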

Additional observations from a re-analysis of the deposited data

How the results depend on the processing

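With DESeq2 size factors, library totals and TPM, the numbers of members past 2-fold were the same as reported in all 3 comparisons, and adding near-identical copies left them the same too. With TPM the members' median log2 ratio moved to 0.0032 (EVI1-WT against empty vector) and 0.14 (EVI1+18 against empty vector), since TPM shifts all genes downward. Of 96 ratios of single members, 11 lay on the other side of 1 with TPM, 3 with library totals and 0 with DESeq2 size factors, all of them within 0.07 of 0 on the log2 scale. With a minimum mean of 10 counts PDK3 entered, so that 1 member was at least 2-fold lower with EVI1-WT than with empty vector and 1 higher with EVI1+18 than with EVI1-WT. With a minimum of 1 count PDK2 entered as well, and the counts were 2 lower with EVI1-WT, 1 lower with EVI1+18 against empty vector and 1 higher with EVI1+18 than with EVI1-WT. These calls rest on few reads, 30, 8 and 21 for PDK3 and 15, 2 and 4 for PDK2. No share of all genes is given at these lower minimums, so nothing is read from them. No paired analysis was possible because each construct has 1 library. Without replicates, differences between cultures cannot be told apart from those between constructs. Depth limits PDK2, PDK3, ENO3 and ENO2 most, and the intervals of ENO2 and PDK1 for EVI1+18 both hold 2-fold.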

Other observations

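Of 18 genes of glycogen and of the way back to glucose, 11 had a mean of at least 50 counts, and 0 of them passed 2-fold in any comparison, as did few of all genes (0.211% to 1.70% in either direction). Against empty vector 5 of 11 were above a ratio of 1 with EVI1-WT (52.6% of all genes) and 4 of 11 with EVI1+18 (49.9%), at median log2 ratios of -0.12 and -0.14. In EVI1+18 against EVI1-WT 7 of 11 were above 1 (48.9%), at a median of 0.07. GYS1, the glycogen synthase of most tissues, was 1.29-fold higher with EVI1+18 (1.19 to 1.40), as were PCK2 by 1.28-fold (1.17 to 1.40) and G6PC3 by 1.25-fold (1.12 to 1.38). GBE1, the branching enzyme, had 18.2, 11.5 and 13.6 TPM and was 1.5-fold lower with EVI1-WT (1.32 to 1.72). PGM2L1, which makes glucose 1,6-bisphosphate, had 73, 46 and 43 counts and was 1.95-fold lower with EVI1+18 (1.32 to 2.91). PGM1, the main phosphoglucomutase of most tissues, had 0, 2 and 2 counts, while PGM2 had 1643, 1497 and 1648. FBP1 and FBP2, the fructose bisphosphatases, had 0 counts in every library.

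Of the regulators, 13 of 17 genes present had a mean of at least 50 counts, and 0 of them passed 2-fold in any comparison, as did few of all genes (0.211% to 1.70% in either direction). Above a ratio of 1 to empty vector were 8 of 13 with EVI1-WT (52.6% of all genes) and 5 of 13 with EVI1+18 (49.9%), at median log2 ratios of 0.08 and -0.08. In EVI1+18 against EVI1-WT 5 of 13 were above 1 (48.9%), at a median of -0.04. EGLN3, an oxygen-sensing prolyl hydroxylase and itself a known target of the hypoxia-inducible factors, had 519, 842 and 1077 counts, at 1.60 with EVI1-WT (1.44 to 1.79) and 1.81 with EVI1+18 (1.63 to 2.01). EGLN1 was at 1.20 (1.08 to 1.32) and 1.32 (1.20 to 1.46). None of EGLN2, HIF1AN and VHL, also oxygen-sensing genes of the list, was above 1 in both EVI1 libraries. EGLN2 was at 0.872 (0.817 to 0.929) and 0.992 (0.934 to 1.05), and HIF1AN at 0.905 (0.827 to 0.989) and 0.878 (0.805 to 0.958). VHL was at 1.08 (1.02 to 1.14) with EVI1-WT and 0.938 (0.888 to 0.991) with EVI1+18. HIF1A, which codes for an oxygen-labile subunit of those factors, was at 0.986 with EVI1-WT (0.895 to 1.09) and 1.26-fold lower with EVI1+18 (1.14 to 1.39), and EPAS1, which codes for a related subunit, was 1.40-fold higher with EVI1+18 (1.15 to 1.69) on 180, 189 and 288 counts.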
